A study of Homo sapiens with 45 samples.

Results

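CTCF occupancy in HEK293T cells treated with BPK25 was compared directly with CTCF occupancy in HEK293T cells treated with IAA, as given by the list of ChIP-seq peaks of each treatment. The members are the distinct regions of these lists, 375 under BPK25 and 595 under IAA, which together make 970 of the 53743 regions in the 12 lists of the series. A region of one list was called common when it overlapped a region of the other by 1 bp or more, and otherwise BPK25-only or IAA-only. The design implies a single question here, which is whether the CTCF regions still listed after each treatment are at the same places.

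HEK293T is a human embryonic kidney cell line that expresses the SV40 large T antigen. Cells of one group were exposed to 30 µM BPK25 for 72 h, those of another to 0.5 mM IAA for 72 h, and those of the vehicle group to DMSO for 72 h. BPK25 is an electrophilic compound reported to lower the amount of subunits of NuRD, a nucleosome remodelling and deacetylase complex. IAA is the plant hormone auxin, used in animal cells to degrade a protein that carries a matching degron. The labels speak of edited derivatives of the line but do not say which protein, if any, carried a degron in the IAA group. Each treatment had 3 CTCF libraries, which the authors pooled into 1 list, so no value below has a replicate error and no difference between treatments could be tested. The series also holds lists for MBD2 and MBD3, alternative subunits of NuRD, and for TET1, an enzyme that oxidises methylated cytosine. The DMSO lists of all 4 antibodies served to describe where the treated regions lay.

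CTCF is a zinc finger protein that binds a long DNA motif at insulators, promoters and the anchors of chromatin loops, where it halts the cohesin complex. Many of its sites are shared across cell types, and methylation of cytosine within the motif can prevent binding. ChIP-seq of any protein also yields regions at satellite and other repeats, because many genomic copies are mapped to the few copies in the assembly. Such regions have a high local background of fragments and a modest fold.

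Few CTCF regions were common to both treatments. Of the 375 BPK25 regions, 83 overlapped an IAA region, a share of 22.1% (95% Wilson interval 18.2 to 26.6). Of the 595 IAA regions, 84 overlapped a BPK25 region, a share of 14.1% (11.5 to 17.1). The lists thus held 292 BPK25-only and 511 IAA-only regions, and these made up the larger part of each list. The common regions formed 84 overlapping pairs, since 1 BPK25 region on chromosome X met 2 IAA regions. The pairs shared 24.6 kb of sequence, against 113.05 kb covered by the BPK25 list and 222.5 kb by the IAA list. All intervals on shares reflect the number of regions counted, and replicate cultures do not enter them.

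The CTCF label could be set only against positions in the DMSO lists, which do not tell CTCF from the other antibodies. A DMSO CTCF region lay at 223 of 375 BPK25 regions (59.5%) and at 170 of 595 IAA regions (28.6%). The shares were not much lower for the other DMSO lists. They were 53.1% for MBD3, 50.4% for MBD2 and 43.5% for TET1 among BPK25 regions. Among IAA regions they were 27.4%, 26.1% and 23.9%. No DMSO list of any antibody held 38.9% of BPK25 regions and 70.1% of IAA regions. For these, and for regions that several antibodies share, the label is the only evidence that CTCF was bound. The IAA CTCF list also shared many high-fold regions, absent from DMSO, with the BPK25 list of MBD2. Whether libraries or files of these lists were exchanged or mixed was not tested, so IAA-only regions and their folds are those of the list labelled IAA CTCF.

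The lists differed in depth, which limits above all what absence from the BPK25 list can show. The number of fragments at each summit and the local background were recovered from the authors' fold and p-value for 373 of 375 BPK25 regions and 564 of 595 IAA regions. The smallest local background of a list, called its floor, was 0.256 fragments under BPK25, 0.937 under IAA and 4.35 in DMSO. The BPK25 floor was therefore 27.3% of the IAA floor, and the listed BPK25 regions had as few as 5 fragments at the summit, against at least 8 under IAA and 14 in DMSO. Scaled by the ratio of floors, 208 of 486 IAA-only regions with a recovered pileup (42.8%) would pass the least significance found in the BPK25 list. The scaling is coarse, because it passed only 44 of 78 common IAA regions (56.4%) although all of them were listed under BPK25. In the other direction, all 292 BPK25-only regions would pass the least significance found in the IAA list. That outcome was largely fixed in advance, because the least −log10 p was 5.30 in the BPK25 list and 5.26 in the IAA list. The part of depth in the absence of IAA-only regions from the BPK25 list was not tested.

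The common regions lay mostly where the local background was raised. Under BPK25, 75 of 81 common regions with a recovered background (92.6%, 84.8 to 96.6) had more than 3 times the floor, against 104 of 292 BPK25-only regions (35.6%, 30.3 to 41.3). Under IAA the figures were 71 of 78 common regions (91.0%, 82.6 to 95.6) and 55 of 486 IAA-only regions (11.3%, 8.80 to 14.4). In the DMSO CTCF list, 10.2% of regions had a raised background by the same measure. Because the floors differ, 3 times the floor is a different number of fragments in each list. These shares are therefore compared only inside one list. The median local background of common regions was 127 times the floor under BPK25 and 94.4 times under IAA, while specific regions had 1.56 and 1.27 times the floor. Raised background and overlap with the other treatment therefore went together in both lists.

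Read the other way, most regions on a low background were specific to their treatment. Of 194 BPK25 regions with at most 3 times the floor, 6 (3.09%, 1.42 to 6.58) had an IAA region, and of 438 such IAA regions, 7 (1.60%, 0.776 to 3.26) had a BPK25 region. With both lists limited in this way, 3 pairs were left.

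**Figure D1:**
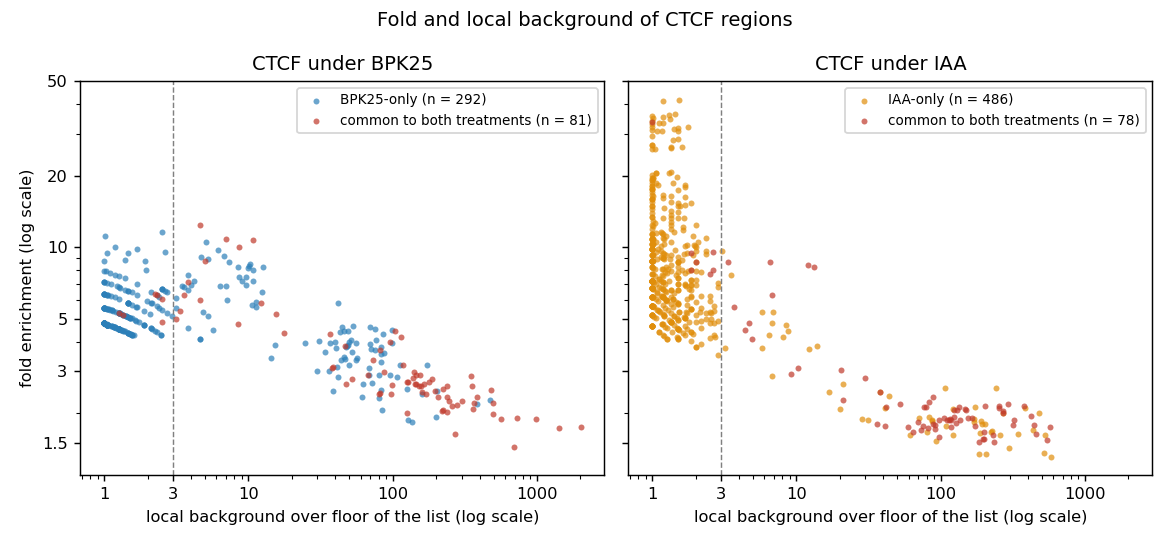
Fold enrichment (vertical, log scale) against local background in units of the list's floor (horizontal, log scale), for BPK25 regions on the left and IAA regions on the right, 1 point per region with a recovered background (2 BPK25 and 31 IAA regions without one are not drawn). The dashed line marks 3 times the floor, and 75 of 81 common BPK25 regions and 71 of 78 common IAA regions lie to its right.

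Common regions had a low fold and many fragments. The authors' fold enrichment, a linear ratio of fragments over local background, had a median of 2.71 in common BPK25 regions, with quartiles of 2.296 and 4.33, against 4.78 in BPK25-only regions. In common IAA regions the median was 2.03, with quartiles of 1.78 and 2.54, against 7.02 in IAA-only regions. The median pileup was 100 fragments in common BPK25 regions and 172.5 in common IAA regions, while BPK25-only regions had 8 and IAA-only regions 17. Because depth enters the fold, these medians are set against each other only inside one list.

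The overlap was concentrated in the lowest quartile of fold. In that quartile, 57 of 94 BPK25 regions (60.6%, 50.5 to 69.9) were common, with folds up to 3.62. In the quartiles above, the shares were 7 of 97 (7.22%), 7 of 91 (7.69%) and 12 of 93 (12.9%). The IAA list had the same shape, since 68 of 149 regions of its lowest quartile were common (45.6%, 37.8 to 53.6). Above it the common ones numbered 4 of 149, 10 of 149 and 2 of 148. In both lists the lowest quartile thus held most of the common regions. Fold is tied to background here, since a BPK25 region of only 5 fragments at the floor had a fold of 4.78. The quartiles therefore partly restate the result on background.

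By position, the 84 pairs fell into 32 places when pairs within 100 kb were joined. In 10 places there were 3 pairs or more, and these held 60 of the 84 pairs (71.4%), while 20 places held a single pair. The largest set was the whole of an unplaced contig, Un_gl000226, where 17 pairs lay within 13.9 kb. That contig had 18 BPK25 regions, 17 IAA regions and 18 DMSO CTCF regions, so nearly all its listed places recurred. Another unlocalised contig, 9_gl000199_random, had 10 pairs, but 56 BPK25 regions against 14 IAA regions and 69 DMSO regions. It held 14.9% of the BPK25 list, 2.35% of the IAA list and 0.396% of the DMSO CTCF list, and 46 of its regions were BPK25-only.

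On assembled chromosomes, the pairs were gathered beside centromeres. A stretch of chromosome 2 (92296062 to 92325279, hg19 throughout) held 8 pairs. Chromosome X held 5 pairs between 58568287 and 58580279 and 3 between 61697216 and 61723120. A further 4 were between 22245550 and 22255313 of chromosome 17, with 3 between 51582637 and 51587011 of chromosome 11. These stretches adjoin the centromere gaps of the hg19 assembly, which hold alpha satellite DNA in the cell. The pairs there had folds of at most 3.19 under BPK25 and 2.23 under IAA. Chromosome 10 had 3 pairs from 42386973 to 42400682 and 3 more from 42540567 to 42600227, with folds of at most 3.84 under BPK25 and 2.45 under IAA.

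A pair on chromosome 1 from 121485046 to 121485384 under BPK25 and from 121485038 to 121485401 under IAA led both lists by significance. Its folds were only 1.945 under BPK25 and 1.964 under IAA, and its summits were 5 bp apart. Second in both lists was a pair of chromosome 19 (27731953 to 27732294 under BPK25), whose folds were 2.21 under BPK25 and 2.38 under IAA with the summit on the same base. These pairs thus combined the greatest significance with a low fold.

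Regions off chromosomes 1 to 22 and X were more frequent among common regions. They numbered 29 of 83 common BPK25 regions and 48 of 292 BPK25-only regions, and 29 of 84 common IAA regions and 23 of 511 IAA-only regions. All 29 common regions off these chromosomes were on unplaced or unlocalised contigs. The 4 mitochondrial regions of the IAA list and its 3 regions on alternate haplotypes were IAA-only. On chromosomes 1 to 22 and X alone, 54 of 298 BPK25 regions (18.1%) and 55 of 543 IAA regions (10.1%) were common.

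One set of common regions had high folds in both lists. On chromosome 17, 4 pairs lay within 126.4 kb from 18965246 to 19091595, and their folds were 7.11 to 10.8 under BPK25 and 4.79 to 9.53 under IAA. Their local background was 3.79 to 8.63 times the floor under BPK25 and 2.63 to 6.75 times under IAA. The DMSO CTCF list had 13 regions in the same span. Of these pairs, the region from 18967029 to 18967409 under BPK25 had a fold of 10.8 under BPK25, 6.28 under IAA and 9.61 in the DMSO CTCF list. The region from 19091305 to 19091563 had CTCF folds of 9.97 under BPK25, 8.66 under IAA and 12.3 in DMSO. It was also listed for MBD2, MBD3 and TET1 under BPK25 and in DMSO, and for MBD2 and TET1 under IAA, so 10 of the other 11 lists held it. The folds for MBD2, MBD3 and TET1 were 12.3, 11.4 and 13.4 under BPK25 and 14.3, 13.0 and 9.51 in DMSO. A high fold there was thus not particular to CTCF. A region from 18965246 to 18965586 under IAA had a fold of 9.53 under IAA, 7.11 under BPK25 and 13.4 in DMSO. All 4 DMSO lists held these regions.

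Altogether 11 pairs had a fold of 5 or more in both treatments. They rested on 6 to 31 fragments under BPK25 and, where recovered, 21 to 102 under IAA. Besides 3 of the chromosome 17 pairs, they included a pair on chromosome 1 from 148604605 to 148604919 under BPK25 (fold 6.26 under BPK25 and 9.495 under IAA) and one on chromosome X from 100023804 to 100024025 (6.07 under BPK25 and 8.65 under IAA). In 8 of the 11 pairs the region was in all 4 DMSO lists, and in 3 the BPK25 region was in none.

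The common region of highest BPK25 fold lay on chromosome 1 from 236877006 to 236878355, with folds of 12.4 under BPK25, 4.12 under IAA and 2.92 in DMSO. It was 1350 bp wide under BPK25 and 623 bp wide under IAA, and the summits were 487 bp apart. Near the end of chromosome 7, a region from 24021 to 24433 had folds of 10.7 under BPK25, 3.03 under IAA and 3.46 in DMSO, and all other lists of the series held it too. The fifth region by BPK25 fold, on chromosome 17 from 19015531 to 19015855, had 8.77 under BPK25, 4.79 under IAA and 8.49 in DMSO.

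Pairs absent from the DMSO CTCF list were few. On chromosome 2, a region from 38708916 to 38709908 had an IAA fold of 63.2, while the BPK25 region inside it, from 38709645 to 38709898, had a fold of 5.21 on 6 fragments. Their summits were 725 bp apart, the widest distance of any pair, and of the DMSO lists only that of MBD2 held the IAA region, with a fold of 3.56. On chromosome 11, the IAA region from 16996257 to 16996593 had a fold of 33.6 on 64 fragments and the BPK25 region 5.29 on 6 fragments, with summits 10 bp apart and no DMSO list. Both places were also listed for MBD2 under BPK25, with folds of 21.9 on chromosome 2 and 14.9 on chromosome 11. The other 2 pairs of this kind lay on the unplaced contig Un_gl000220, which in hg19 carries ribosomal RNA genes. Their folds were 5.21 and 4.34 under BPK25, on 25 and 23 fragments, and 8.43 and 8.25 under IAA, on 102 and 109 fragments. The BPK25 regions of all 4 pairs, these 2 included, were also listed for MBD2 under BPK25, and 2 of the 4 for MBD3. At unequal depth the folds of these pairs do not compare enrichment between treatments.

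**Figure D2:**
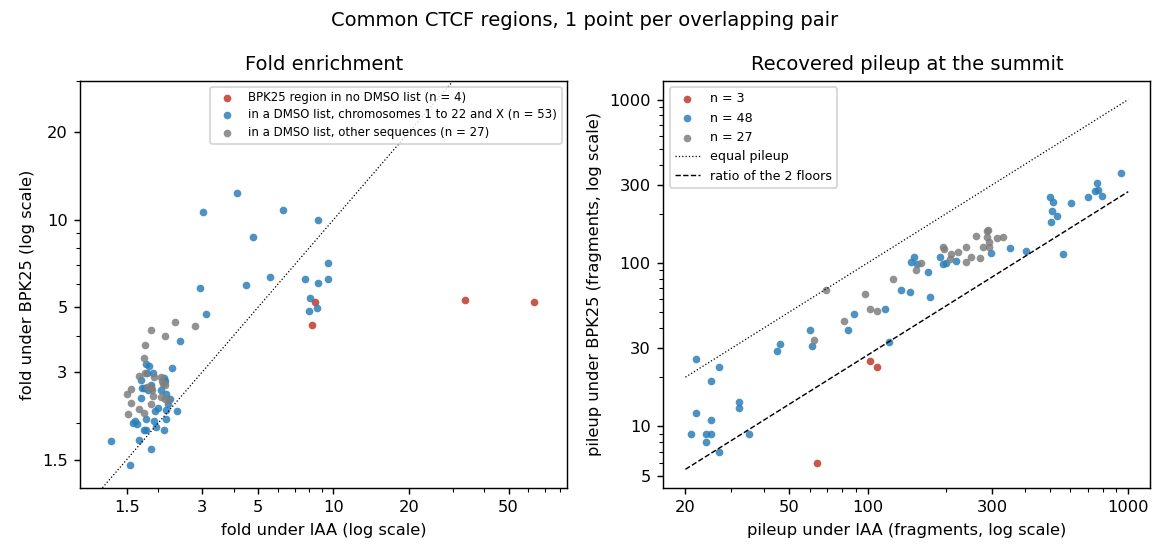
The 84 pairs of overlapping CTCF regions, with BPK25 vertical and IAA horizontal on log axes: fold on the left, and fragments at the summit on the right for the 78 pairs recovered in both. Red marks pairs whose BPK25 region is in no DMSO list, blue the others on chromosomes 1 to 22 and X and grey those elsewhere. Dotted lines mark equal values and the dashed line the ratio of floors. Most points gather at folds under 3 in both treatments, and the 2 red points far to the right are the pairs on chromosomes 2 and 11 with IAA folds of 63.2 and 33.6.

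Across pairs, places with many fragments or a high local background under one treatment mostly had them under the other. The BPK25 pileup was a median of 0.464 times the IAA pileup, with a range of 0.0938 to 1.18, and the BPK25 background was 0.341 times the IAA background, against 0.273 for the floors. The fold was higher under BPK25 in 67 pairs and higher under IAA in 17, which at unequal depth does not compare enrichment. Across the 78 pairs, Spearman's rho between treatments was 0.955 for pileups, 0.991 for local backgrounds and 0.668 for folds over all 84 pairs. These are descriptions, since each pair is 1 place in the assembly, all pairs come from the same pair of lists, and neighbouring pairs are not independent.

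Summits of common pairs were close together. The median distance between the BPK25 and the IAA summit was 21.5 bp (95% interval of the median 14 to 30), with quartiles of 8 and 69.75 bp. In 60 of 84 pairs the summits lay within 50 bp, in 68 within 150 bp, and in 3 pairs on the same base. The median was 21 bp for the 55 pairs with 1 summit in each region and 27 bp for the pairs where either region had several. Where sub-peaks were allowed to pair with their nearest counterpart, a choice made after seeing the data, the median was 15 bp and the largest distance 238 bp. By this measure 77 of 84 pairs lay within 150 bp.

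**Figure D3:**
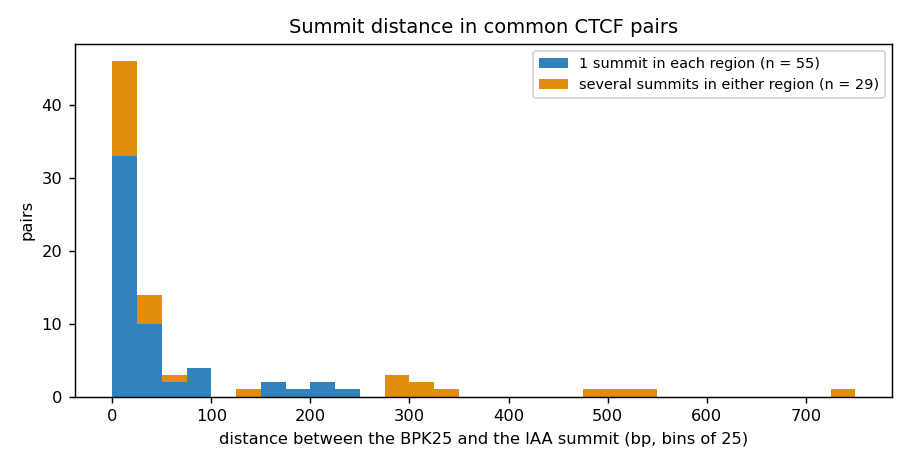
Number of common pairs (vertical) by distance between the BPK25 and the IAA summit in bp (horizontal, bins of 25 bp), split by whether both regions had 1 summit. The median of the 84 distances is 21.5 bp, and 16 pairs lie beyond 150 bp.

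Overlaps were nearly complete where they occurred. The median pair shared 258 bp, and in 50 of 84 pairs one region lay wholly within the other. In 83 pairs the overlap covered at least 50% of the shorter region. The smallest overlap was 88 bp, on chromosome 7 from 157941035 to 157941488 under BPK25, and the nearest regions that did not overlap were 144 bp apart, so no call turned on a few bases. Allowing a gap of 1000 bp raised the common regions to 98 under BPK25 and 95 under IAA.

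Common regions were wider than specific ones under BPK25 but not under IAA. Under BPK25 the median width was 339 bp for common regions, with quartiles of 267.5 and 425 bp, against 243 bp for BPK25-only regions, with quartiles of 210 and 295 bp. Under IAA it was 300.5 bp for common and 309 bp for IAA-only regions, and the widest region, at 1719 bp, was IAA-only. Several summits were called in 17 of 83 common BPK25 regions (20.5%) and 15 of 292 BPK25-only regions (5.14%). Under IAA they were called in 21 of 84 common regions (25%) and 64 of 511 IAA-only regions (12.5%). Within pairs, the BPK25 region was the wider one in 55 and the IAA region in 27.

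Nearly all common regions were DMSO CTCF regions, unlike the specific ones. A DMSO CTCF region lay at 79 of 83 common BPK25 regions (95.2%, 88.3 to 98.1) and 80 of 84 common IAA regions (95.2%, 88.4 to 98.1). The shares were 144 of 292 for BPK25-only regions (49.3%, 43.6 to 55.0) and 90 of 511 for IAA-only regions (17.6%, 14.6 to 21.2). All 4 DMSO lists held 68 common BPK25 regions (81.9%), 84 BPK25-only regions (28.8%), 68 common IAA regions (80.95%) and 65 IAA-only regions (12.7%). No DMSO list held 4 common BPK25 regions (4.82%), 142 BPK25-only regions (48.6%), 3 common IAA regions (3.57%) and 414 IAA-only regions (81.0%). Most regions were thus either in all 4 DMSO lists or in none.

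**Figure D4:**
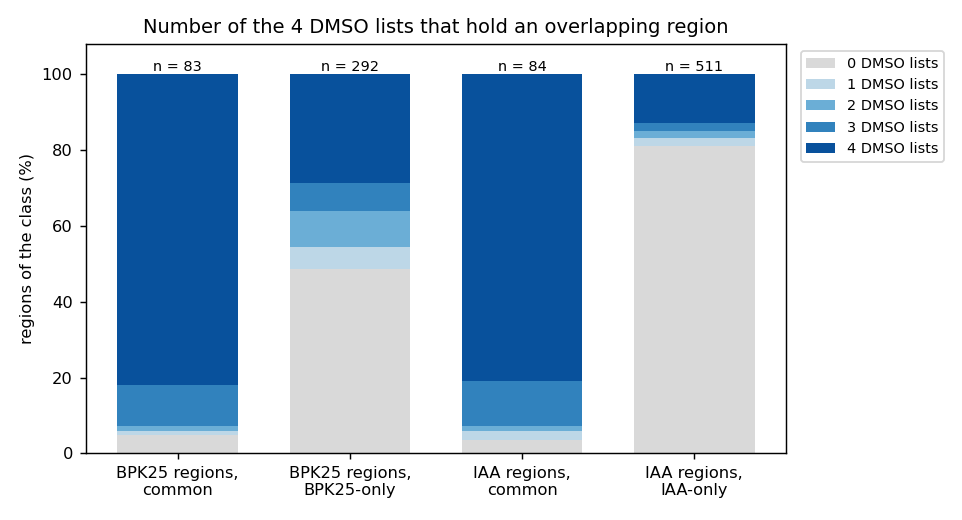
Share of regions (vertical, %, stacked) by the number of DMSO lists, from 0 to 4, that hold an overlapping region, for common and specific regions of each treatment with the number of regions above each bar. The common classes are mostly in all 4 lists (81.9% and 80.95%), and 81.0% of IAA-only regions are in none.

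Presence in DMSO also went with background. Of BPK25-only regions, 95 of 104 on a raised background lay at a DMSO CTCF region (91.3%), against 49 of 188 on a low one (26.1%). Of IAA-only regions, 41 of 55 on a raised background did (74.5%), against 42 of 431 on a low one (9.74%). Common regions on a raised background lay at a DMSO CTCF region in 73 of 75 cases under BPK25 (97.3%) and 69 of 71 under IAA (97.2%). On a low background they did in 4 of 6 (66.7%) and 6 of 7 (85.7%). Common regions were thus above specific ones on either background, by less under BPK25 than under IAA where it was raised. The part of background in the whole difference was not tested further.

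Seen from the DMSO CTCF list, 79 of its 17440 regions were listed in both treatments, 143 under BPK25 alone and 87 under IAA alone. The shared ones were 35.6% of those listed under BPK25 and 47.6% of those listed under IAA. In 78 of these 79 regions, a BPK25 and an IAA region also overlapped each other. DMSO regions listed in both treatments had a median DMSO fold of 1.86, against 3.68 for BPK25 alone, 3.40 for IAA alone and 4.33 for neither. Their median width was 408 bp, against 353, 351 and 251 bp, and 29.1% had several summits, against 20.98%, 31.0% and 1.87%. MBD2, MBD3 and TET1 were all listed in DMSO at 87.3% of them, against 58.0%, 72.4% and 22.2%. Regions listed in both treatments were thus wide, of low DMSO fold and shared by the antibodies. A DMSO background was recovered for only 45 of the 79, and 40 of these (88.9%) exceeded 3 times the DMSO floor. The shares were 68.8% (95 of 138) for BPK25 alone, 44.6% (29 of 65) for IAA alone and 9.39% for neither.

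Where a treated region lay at a DMSO CTCF region, the summits were close in every class. The median distance to the DMSO summit was 12 bp (9 to 20) for common BPK25 regions, 15.5 bp (13 to 21) for BPK25-only, 13 bp (9 to 18) for common IAA and 19.5 bp (15 to 26) for IAA-only regions. Between 74.4% and 81.25% of these summits lay within 50 bp of the DMSO summit. Specific regions at DMSO sites were thus placed about as closely on them as common ones.

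Most BPK25-only regions lay either at a DMSO CTCF region or in no DMSO list, and the latter mostly had very few fragments. The 144 at DMSO CTCF regions had a median fold of 5.08 and a median of 22.5 fragments, and the 142 in no DMSO list had 4.78 and 6 fragments. Of the 144, 95 had a raised background and 49 a low one, and some of the 49 also had as few as 6 fragments. Of these 142, 134 were in no other list of the series, 8 had a raised background, and none had several summits. The strongest BPK25-only region lay on chromosome 7 from 303149 to 303780, with a fold of 11.5 under BPK25 and 13.4 for CTCF in DMSO, and was in all 4 DMSO lists and the other 3 BPK25 lists. A chromosome 19 region (50595854 to 50596156) reached 10.5 under BPK25 and 7.31 for CTCF in DMSO. One near the end of chromosome 16 (60853 to 61122) reached 9.78 under BPK25 and 19.6 for CTCF in DMSO. Regions on chromosome 13 from 114196280 to 114196623 (fold 11.1, 13 fragments) and chromosome 19 from 2938966 to 2939232 (fold 9.98, 12 fragments) were in no other list.

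IAA-only regions were mostly absent from DMSO and included the highest folds of the IAA list. The 414 in no DMSO list had a median fold of 7.76 and a median of 17 fragments, and the 90 at DMSO CTCF regions had 3.78 and 24. Of the 414, 11 of 396 with a recovered background had a raised one, 45 had several summits and 256 were in no other list. The strongest spanned 177482576 to 177483186 of chromosome 5, with a fold of 70.4. Next came 39646321 to 39647459 of chromosome X (fold 67.0) and 142545955 to 142546526 of chromosome 3 (fold 63.6). They were followed by 55800476 to 55800943 of chromosome 5 (fold 63.0) and 66479474 to 66480259 of chromosome 14 (fold 58.3). None of these 5 was in a DMSO list, and all 5 were listed for MBD2 under BPK25, with folds of 25.9, 19.1, 12.3, 22.7 and 13.4.

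The BPK25 list of MBD2 thus held places that the BPK25 list of CTCF did not. Of IAA-only CTCF regions, 181 (35.4%, 31.4 to 39.7) overlapped an MBD2 region under BPK25, and 132 of them had summits within 50 bp. Their median IAA CTCF fold was 13.25, against 5.99 for the 330 IAA-only regions without one. MBD3 and TET1 under BPK25 were listed at 18 (3.52%) and 30 (5.87%) of IAA-only regions. An exchange or mixture of libraries or files was not tested, and it would change what these regions and folds say of CTCF. Without the regions that overlap BPK25 MBD2, the list labelled IAA CTCF had 330 IAA-only and 25 common regions.

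Common regions were listed for other antibodies more often than specific ones, by less where only regions on a raised background were compared. Under BPK25, MBD3 was listed at 76 of 83 common BPK25 regions (91.6%) and 68 of 292 BPK25-only regions (23.3%), MBD2 at 59 (71.1%) and 35 (12.0%), and TET1 at 43 (51.8%) and 33 (11.3%). Under IAA, MBD2 was listed at 54 of 84 common IAA regions (64.3%) and 45 of 511 IAA-only regions (8.81%), TET1 at 51 (60.7%) and 30 (5.87%), and MBD3 at 41 (48.8%) and 29 (5.68%). On a raised background, the BPK25 lists of MBD3, MBD2 and TET1 held 96%, 72% and 50.7% of common BPK25 regions. They held 54.8%, 22.1% and 17.3% of such BPK25-only regions. The IAA lists of MBD2, TET1 and MBD3 held 69.0%, 64.8% and 50.7% of common IAA regions on a raised background. For IAA-only regions there the shares were 47.3%, 36.4% and 30.9%. Of the 194 BPK25 CTCF regions on a low background, 0 were in an IAA list of MBD2, MBD3 or TET1. Recurrence of BPK25 regions in the IAA lists of the other antibodies was thus found where the background was raised or not recovered.

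**Figure D5:**
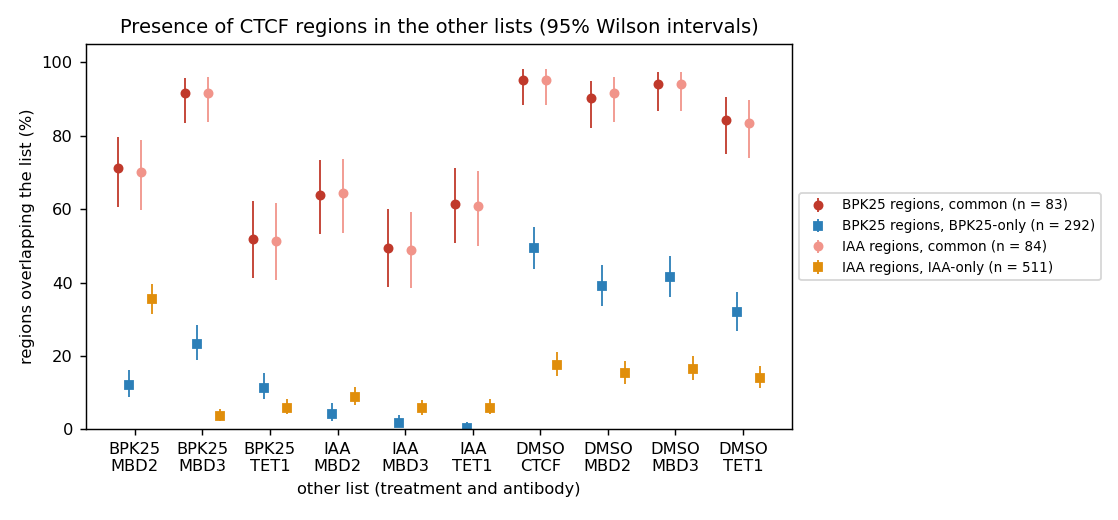
Share of CTCF regions (vertical, %) that overlap each of the 10 other lists (horizontal, treatment and antibody), for common and specific regions of each treatment, with 95% Wilson intervals as bars. Common regions lie above the specific regions of the same treatment in every list, and IAA-only regions are highest in the BPK25 list of MBD2, at 35.4%.

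Most specific regions had no region of the other list within 10 kb, though no rate expected for lists of this size was computed. The nearest IAA region lay within 10 kb for 68 of 292 BPK25-only regions (23.3%), and the nearest BPK25 region within 10 kb for 35 of 511 IAA-only regions (6.85%). Among regions with one on the same chromosome or contig, the median gap was 1265 kb for BPK25-only and 4074 kb for IAA-only regions. On chromosome 19, the BPK25 list had 22 regions (5.87%), the IAA list 17 (2.86%) and the DMSO CTCF list 633 (3.63%), and 1 pair was common there. Many of these BPK25 regions lay in close-set runs from 48412591 to 48448155 and from 50595854 to 50632081. All regions of these runs were BPK25-only, in all 4 DMSO lists and on a raised background, so the BPK25 share is not spread along the chromosome. On chromosome X the counts were 32 (8.53%), 41 (6.89%) and 743 (4.26%), with 8 common BPK25 and 9 common IAA regions. Many of its BPK25-only regions lay in a single run from 114960506 to 114996535. The regions of that run had folds of 5.63 to 8.52, were in all 4 DMSO lists and had a raised background.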

How the data were processed

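The members, lists and comparisons were chosen with earlier results of these data known. Each of the 12 lists was called by the authors on 3 libraries together, on build hg19. The submitters' processing notes name MACS2 2.1.2, Bowtie2 2.3.4, deepTools 3.5.0, SAMtools 1.9, FastQC 0.11.7 and bedtools 2.25.0. No caller setting is given in the sources used here. The deposited lists give for each peak the fold enrichment as a linear ratio, the −log10 of its p-value and q-value, and the summit offset in bp, all the authors' values. Groups came from treatment and antibody in the labels' titles.

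Rows that share start and end are sub-peaks and made 1 region, which took its values from the one with the largest −log10 p. Coordinates are 1-based. Pileup and local background, each with 1 added, were taken to form the fold as numerator and denominator, and −log10 p to be the Poisson upper tail. These were solved for whole pileups up to 999, within 0.02% of the −log10 p, where it was at most 150. Depth of single libraries is unknown. Shares carry 95% Wilson intervals. With 1 list per treatment there is no test. Regions were named from chromosomes 1 to 22 and X at a −log10 q of 5 or more, as the 5 of highest fold among common and among specific regions of each list, together with up to 3 common regions in no DMSO list. Others are named as examples of a place or pair and were chosen after their values were seen. Genes and DNA sequences at the regions were not analysed here. Scripts were tested on simulated data, in Python 3.11.15 with numpy 2.4.6, pandas 2.3.3, SciPy 1.17.1 and matplotlib 3.10.9.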

Additional observations from a re-analysis of the deposited data

How the results depend on the processing

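Of 49 recalculated values, 28 stayed within the 95% interval of the reported one. The share of BPK25 regions that were common, 22.1%, became 31.4% with a −log10 q of 5 or more, 7.14% with a fold of 5 or more, 18.1% on chromosomes 1 to 22 and X, 18.1% with summits within 150 bp and 17.1% with the IAA list shortened to the BPK25 length. It was 1.55% where regions above 3 times the floor were left out. The share of IAA regions, 14.1%, became 2.74% with a fold of 5 or more, 10.1% on chromosomes 1 to 22 and X, 11.4% with summits within 150 bp and 0.685% on a low background. The share of common regions at a DMSO CTCF region, 95.2%, was 72.7% (8 of 11) with a fold of 5 or more and 66.7% (2 of 3) on a low background. For BPK25-only regions, 49.3% became 81.4% with a −log10 q of 5 or more, 55.2% with a fold of 5 or more, 40.98% on chromosomes 1 to 22 and X and 26.7% on a low background. For IAA-only regions, 17.6% became 7.67% with a fold of 5 or more, 14.5% with the shortened list and 10.6% on a low background. The median summit distance, 21.5 bp, was 36 bp with a fold of 5 or more and 262.5 bp where regions within 1000 bp counted. The cause was not tested where the alternative does more than remove regions. Requiring 50% of the shorter region to overlap took none of the 6 values outside its interval. Pairing the nearest sub-peak summits, an alternative chosen after seeing the data, gave 15 bp. No paired analysis was possible because each treatment has 1 list pooled over its 3 libraries, and leaving out a library was not possible for the same reason. Pooled lists give no depth per library, and under BPK25 a region of 5 to 8 fragments rests on few counts.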
